A study of Arabidopsis thaliana with 6 samples.

Results

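The transcripts described here read higher in Arabidopsis root tips at 120 min than at the start, whether the roots were labelled as gibberellin (GA) treated or as untreated. They were chosen by their own signals: the mean over the 6 arrays had to reach 50, and the lowest of the 4 arrays at 120 min had to be at least 1.3 times the highest of the 2 arrays at 0 min. The rule found 28 of the 10232 probe sets with a mean of 50 or more (0.274%), out of 22746 probe sets in all without the array controls. Of these, 19 matched 1 gene each, all different, and 9 were not listed in the platform annotation and stayed unnamed. Since the signals at 0 and 120 min chose the members, their rise from 0 min is given as a description, with no test.

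The series measured root tips of seedlings aged 7 days on 6 Affymetrix ATH1 arrays, 2 per group, under the title of a GA treatment. All samples had the Col-0 background and came from plates with sucrose under continuous light. Untreated roots at 0 min and at 120 min carried the source name Col-0. The third group, at 120 min, was labelled with GA, with the source name GA2oxOE1I and with a gene knock out, so that treatment and plant line cannot be told apart in it; no GA dose or form was given. No label tied the replicates to separate plantings, so the spread between 2 arrays may be technical in part. Each sample was a bulk extract of whole root tips, in which fewer cells of a type and less RNA per cell cannot be told apart.

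Untreated roots harvested after the same delay are the usual reference for a hormone treatment, since they share time and handling with the treated roots. GA itself acts by triggering the breakdown of DELLA proteins, which hold back growth. Among the members are enzymes that remodel the primary wall: xyloglucan endotransglucosylase/hydrolases (XTH) cut xyloglucan chains, which tether cellulose, and rejoin them. Single members are a class III peroxidase, a protease inhibitor and an enzyme of the synthesis of glucosinolates, the mustard oil precursors of this plant family.

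The arrays were not of equal quality. The 3' to 5' signal ratio of the actin control was 14.8 on GA-labelled replicate 1, 4.44 and 4.94 on the other replicate 1 arrays, and 2.22 to 2.52 on the replicate 2 arrays. Medians of all probe sets lay between 38.9 and 43.1. Of the 12 root tip markers 2 had a named probe set, and both signals were modest: AGL42, a marker of the quiescent centre, read 60.6 to 102.3 and JKD, a ground tissue transcription factor, 28.9 to 71.1 over the 6 arrays. The mean of JKD lay under the floor of 50. The 3 measured markers of photosynthetic tissue summed to 270 and 318 at 0 min, 205 and 496 in untreated and 173 and 295 in GA-labelled roots at 120 min, so the groups overlapped. The 2 measured root hair markers, EXPA7 and EXPA18, summed to 570 and 699.7 at 0 min, 559.8 and 632 in untreated and 449 and 527 in GA-labelled roots at 120 min. Here both GA-labelled sums lay below every untreated sum, but the genes did not all do so. EXPA7 alone overlapped, with 277 on GA-labelled replicate 2 against 266 on untreated replicate 1 at 0 min. SCN1, another root hair gene, also overlapped, with 416 and 537 in GA-labelled roots against 424 to 498 in untreated roots. The part of these markers in the results was not tested.

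Values are MAS5 signals, a linear intensity, in the order of replicates 1 and 2; the margin is the lowest signal at 120 min divided by the highest at 0 min.

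Both kinds of samples at 120 min had more signal of a neighbouring pair of wall genes. XTH19 read 117 and 117 at 0 min, 189 and 205 in the untreated and 183 and 171 in the GA-labelled roots at 120 min. Its groups averaged 117 ± 0.569 at 0 min, and 197 ± 11.7 in the untreated and 177 ± 8.44 in the GA-labelled roots later (SD, n = 2 for each), and its margin was 1.46. The 4 arrays at 120 min stayed within 1.199-fold of each other, the narrowest range of the 28 members. XTH18 read 100.4 and 139.9 at 0 min, 214 and 389 in the untreated and 233 and 186 in the GA-labelled roots at 120 min. Its margin of 1.33 lay just over the threshold, and its replicates spread more than those of XTH19: untreated replicate 2 stood highest and GA-labelled replicate 2 lowest of the 4 arrays at 120 min. In the RefSeq annotation 0 protein-coding genes lie between XTH18 and XTH19. Whether the probes of one also bind transcripts of the other was not tested.

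BCAT4 encodes the aminotransferase that starts the chain elongation of methionine for glucosinolates. Its signals were 43.0 and 41.9 at 0 min, 64.2 and 222 in the untreated and 132 and 194 in the GA-labelled roots at 120 min. Both 0 min arrays agreed closely and lay below the other 4, while untreated roots at 120 min ranged 3.45-fold between replicates. The mean was 3.36 times that at 0 min in untreated and 3.84 times in GA-labelled roots, and untreated replicate 1 alone set the margin of 1.49.

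The next 3 members, a protease inhibitor, a peroxidase and a RIN4 relative, are set side by side by their protein families alone. AT2G38870, a small protein of the potato type I inhibitors, which block serine proteases, had signals of 336 and 476 at 0 min, 791 and 868 in the untreated and 700.1 and 1136 in the GA-labelled roots at 120 min. Its group means were 406 ± 99.1 at 0 min, and 829 ± 53.9 in the untreated and 918 ± 308 in the GA-labelled roots later (SD, n = 2 for each), and the highest array was GA-labelled replicate 2. AT5G39580, a class III peroxidase, an enzyme type that oxidises wall phenolics and handles hydrogen peroxide, read 32.7 and 20.6 at 0 min, 45.4 and 46.2 in the untreated and 62.2 and 186 in the GA-labelled roots at 120 min. Here the GA-labelled arrays lay above the untreated ones, and replicate 2 of the GA-labelled roots stood far above all others. AT3G48450, of the family of RIN4, a plasma membrane regulator of immune signalling, read 35.9 and 36.0 at 0 min, 51.6 and 58.2 in the untreated and 108 and 51.5 in the GA-labelled roots at 120 min. One array made most of its treated mean, since GA-labelled replicate 2 lay at the level of untreated replicate 1 and GA-labelled replicate 1 far above it. Its average without GA-labelled replicate 1 fell below the floor of 50.

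Proteins of other families followed. AT1G67800, a protein with a copine-type domain, read 44.4 and 47.6 at 0 min, 74.6 and 127 in the untreated and 84.5 and 74.2 in the GA-labelled roots at 120 min, with a margin of 1.56. Untreated replicate 2 was its highest array, and the other 3 at 120 min lay close together. AT5G45430, a protein kinase, read 52.5 and 57.7 at 0 min, 91.7 and 92.8 in the untreated and 85.9 and 134 in the GA-labelled roots at 120 min. GA-labelled replicate 2 was its highest array, while the remaining 3 at 120 min were nearly level. AT3G07600, which carries a heavy metal-associated domain, read 37.3 and 49.7 at 0 min, 66.6 and 115 in the untreated and 118 and 111 in the GA-labelled roots at 120 min. Untreated replicate 1 was the low array of this gene at 120 min.

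The largest margin of all members, 1.98, belonged to AT5G50140, a protein with ankyrin repeats, which mediate contacts between proteins. It read 29.4 and 39.8 at 0 min, 81.9 and 87.4 in the untreated and 124 and 78.7 in the GA-labelled roots at 120 min. Even the lowest array at 120 min, GA-labelled replicate 2, lay clearly above the higher array at 0 min. AT5G04730, another ankyrin repeat protein, read 53.6 and 56.2 at 0 min, 75.6 and 107 in the untreated and 90.9 and 82.2 in the GA-labelled roots at 120 min, and its margin was 1.35. Its 0 min arrays agreed within 1.05-fold. AT2G32020 belongs to the acyl-CoA N-acyltransferase superfamily. It read 65.6 and 66.8 at 0 min, 89.3 and 88.2 in the untreated and 127 and 114 in the GA-labelled roots at 120 min. This member had the smallest margin of the 19 named ones, 1.32, while its 0 min replicates agreed within 1.02-fold and its groups did not overlap. AT5G44170, of the superfamily of S-adenosylmethionine-dependent methyltransferases, read 63.0 and 47.7 at 0 min, 87.0 and 96.5 in the untreated and 106 and 84.0 in the GA-labelled roots at 120 min, and its 0 min replicates differed more than its untreated replicates at 120 min.

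For the remaining 6 named members no role is given. AT3G19660 read 33.9 and 34.3 at 0 min, 56.3 and 74.7 in the untreated and 117 and 75.4 in the GA-labelled roots at 120 min. AT1G32920 read 123 and 122 at 0 min, 217 and 201 in the untreated and 387 and 228 in the GA-labelled roots at 120 min. Both had 0 min replicates that agreed within 1.1-fold, a margin of 1.64 and a peak on GA-labelled replicate 1, where the actin 3' to 5' ratio was 14.8. AT1G22885 was also highest on GA-labelled replicate 1, with 37.8 and 39.3 at 0 min, 55.4 and 82.1 in the untreated and 140.1 and 76.2 in the GA-labelled roots at 120 min. AT3G18250 read 33.6 and 28.1 at 0 min, 46.1 and 84.5 in the untreated and 85.1 and 176 in the GA-labelled roots at 120 min, which put both GA-labelled arrays above both untreated arrays at 120 min by a small distance. AT4G36500 read 81.5 and 98.2 at 0 min, 130.5 and 142 in the untreated and 159 and 146 in the GA-labelled roots at 120 min. AT2G15760 read 45.1 and 33.2 at 0 min, 59.9 and 74.9 in the untreated and 74.4 and 72.8 in the GA-labelled roots at 120 min. In these last 2 genes the 4 arrays at 120 min lay within 1.22-fold and 1.25-fold of each other.

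The 9 unnamed members had margins of 1.32 to 1.46, against 1.32 to 1.98 for the named ones. Their group means ran from 29.4 to 199 at 0 min, from 66.6 to 368 in untreated roots at 120 min, and from 60.1 to 359.8 in GA-labelled roots. The one with the largest margin read 63.1 and 71.7 at 0 min, 104 and 111 in the untreated and 131 and 105 in the GA-labelled roots at 120 min. The one with the widest spread read 45.5 and 33.2 at 0 min, 61.5 and 205 in the untreated and 169 and 75.3 in the GA-labelled roots at 120 min, so that untreated replicate 2 and GA-labelled replicate 1 were high and the other arrays at 120 min were low.

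**Figure D1:**
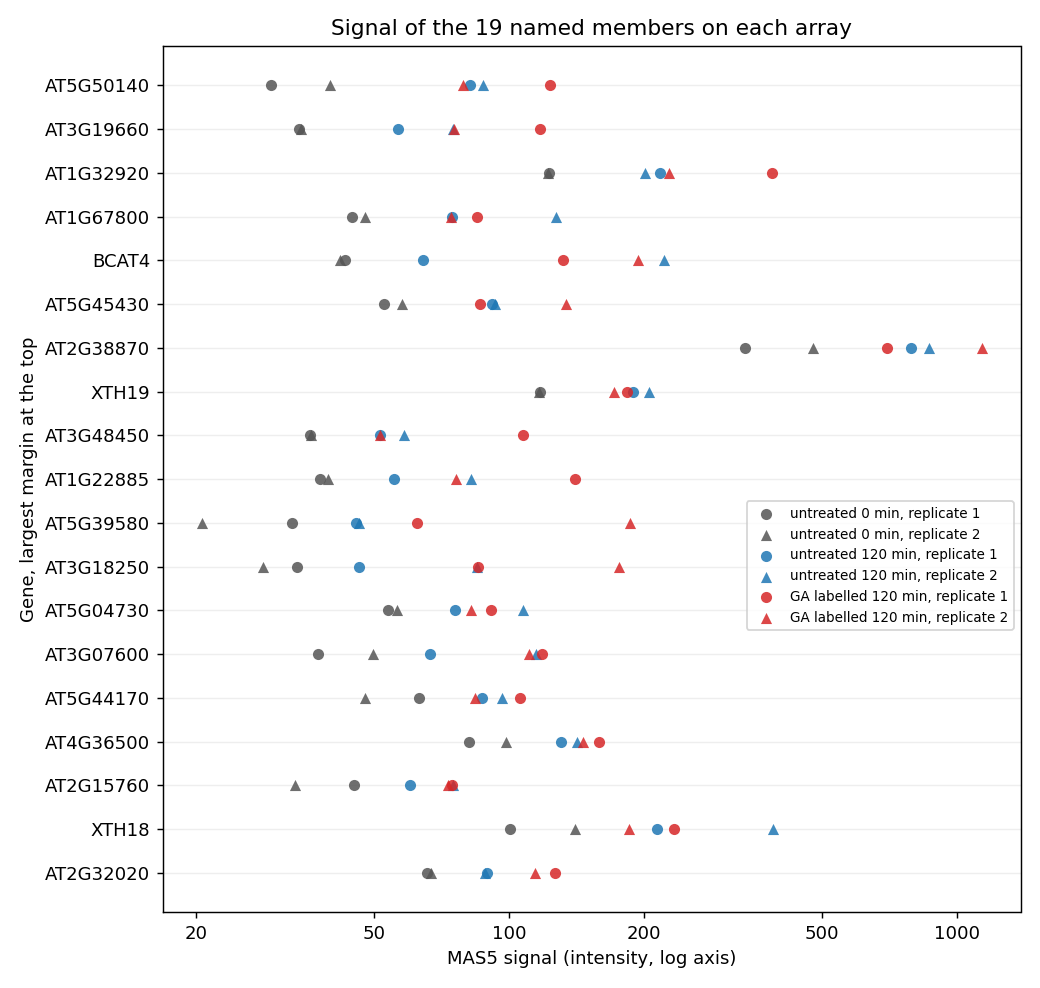
MAS5 signal (log axis) of the 19 named members, 1 row per gene with the largest margin at the top, as 1 point for each of the 6 arrays, coloured by group and shaped by replicate. In every row the 2 grey points of 0 min lie left of the other 4, with margins from 1.32 to 1.98, and the order of the 4 arrays at 120 min differs from gene to gene.

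Across all 28 members, the mean at 120 min was 1.34 to 3.39 times that at 0 min in untreated roots (median 1.79). For GA-labelled roots it was 1.49 to 4.66 times (median 1.98). Both sets of ratios use the same 0 min arrays, so they are not separate evidence. Within replicate 1 the median ratio of the members was 1.55 in untreated and 2.08 in GA-labelled roots. Within replicate 2 it was 2.09 and 1.81. Over all 10232 probe sets with a mean of 50 or more these medians were 1.00, 0.996, 0.971 and 0.98, in the same order.

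The 4 arrays at 120 min did not hold the members at one height. Untreated replicate 1 was the lowest of the 4 for 16 of the 28 members, against 17.7% of all probe sets with a mean of 50 or more, and was the highest for 0, against 21.8%. Untreated replicate 2 read above untreated replicate 1 for 26 of the 28 (45.5% of all), with a median log2 difference of 0.29. In GA-labelled roots the replicates ran the other way: replicate 1 read above replicate 2 for 22 of the 28 (52.5% of all). The highest array was untreated replicate 2 for 12 members (23.7% of all), GA-labelled replicate 1 for 12 (33.3% of all, the largest share of the 4 arrays) and GA-labelled replicate 2 for 4 (21.1% of all). From the lowest to the highest of the 4 arrays the median spread was 1.60-fold (1.199 to 4.11), and 9 members, BCAT4, XTH18 and AT5G39580 among them, spread 2-fold or more. The median over all probe sets was 1.56-fold.

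**Figure D2:**
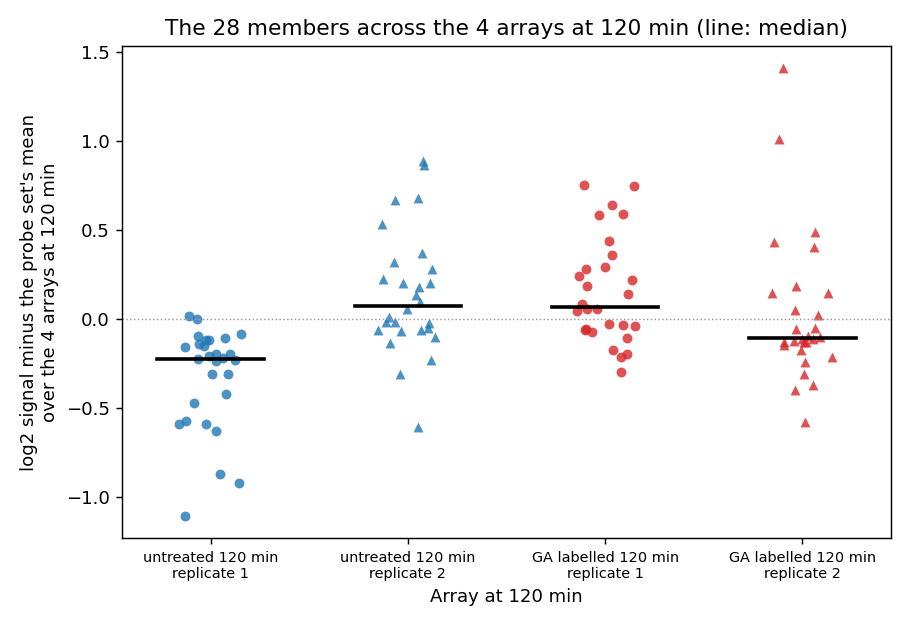
log2 signal of each of the 28 members on each of the 4 arrays at 120 min, minus the mean of that probe set over the same 4 arrays; points are members and lines are medians. The medians were -0.22 on untreated replicate 1, 0.074 on untreated replicate 2, 0.069 on GA-labelled replicate 1 and -0.11 on GA-labelled replicate 2, and 2 members lay above 0 on untreated replicate 1.

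At 0 min the median ratio between the replicates of the members was 1.17, against 1.195 over all probe sets with a mean of 50 or more. The rule used the higher of the 0 min arrays, and the median signal of the members was lower, 84.4 against 124. The comparison is therefore a description only. For 12 members, XTH19, BCAT4 and AT3G48450 among them, the ratio was 1.1 or less, while the widest was 2.205. Members were found mostly at lower signals. There were 18 members among 3990 probe sets with a mean of 50 to 100 (0.451%), 6 of 2959 from 100 to 200 (0.203%), 3 of 1672 from 200 to 400 (0.179%) and 1 of 1611 above that (0.0621%). For 14 members the mean at 0 min was under 50, so that only their signals at 120 min brought them over the floor.

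The question the rule did not fix was whether the members differed between GA-labelled and untreated roots at 120 min. In limma, fitted over 13647 probe sets, 0 of the 28 passed (lowest adjusted p = 0.999), and the background was 0% of all probe sets called. At an unadjusted p under 0.05 there was 1 member, and 164 of all probe sets. The mean log2(signal + 16) was higher in GA-labelled roots for 18 members and lower for 10, with a median difference of 0.12, against 0.0093 over all probe sets tested. The median half-width of the 95% confidence intervals of the members was 0.63 in log2, so most differences of that size or less could not be told from 0 with 2 arrays a group.

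For 6 members both GA-labelled arrays read above both untreated arrays at 120 min, against 11.5% of all tested probe sets. They were AT1G32920, AT3G19660, AT5G39580, AT3G18250, AT4G36500 and AT2G32020. For 2 members, XTH19 and 1 unnamed probe set, both read below, against 10.4%. Whether these counts of 28 differ from their background was not tested. AT5G39580, the peroxidase, had the largest difference, 1.03 in log2 (95% confidence interval 0.081 to 1.97), and AT3G18250 followed with 0.82 (-0.00062 to 1.64). Both rested on GA-labelled replicate 2: without it the differences were 0.34 and 0.35. AT1G32920 differed by 0.48, and by 0.12 without GA-labelled replicate 1. At the other end XTH18 differed by -0.45 (-1.15 to 0.26), and its replicates overlapped; without untreated replicate 2 the difference was -0.038. The difference of BCAT4 was 0.35 (-0.66 to 1.37), and its sign turned to -0.43 without untreated replicate 1. The median over the members turned to -0.013 without GA-labelled replicate 1 and to -0.013 without untreated replicate 1 at 120 min.

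**Figure D3:**
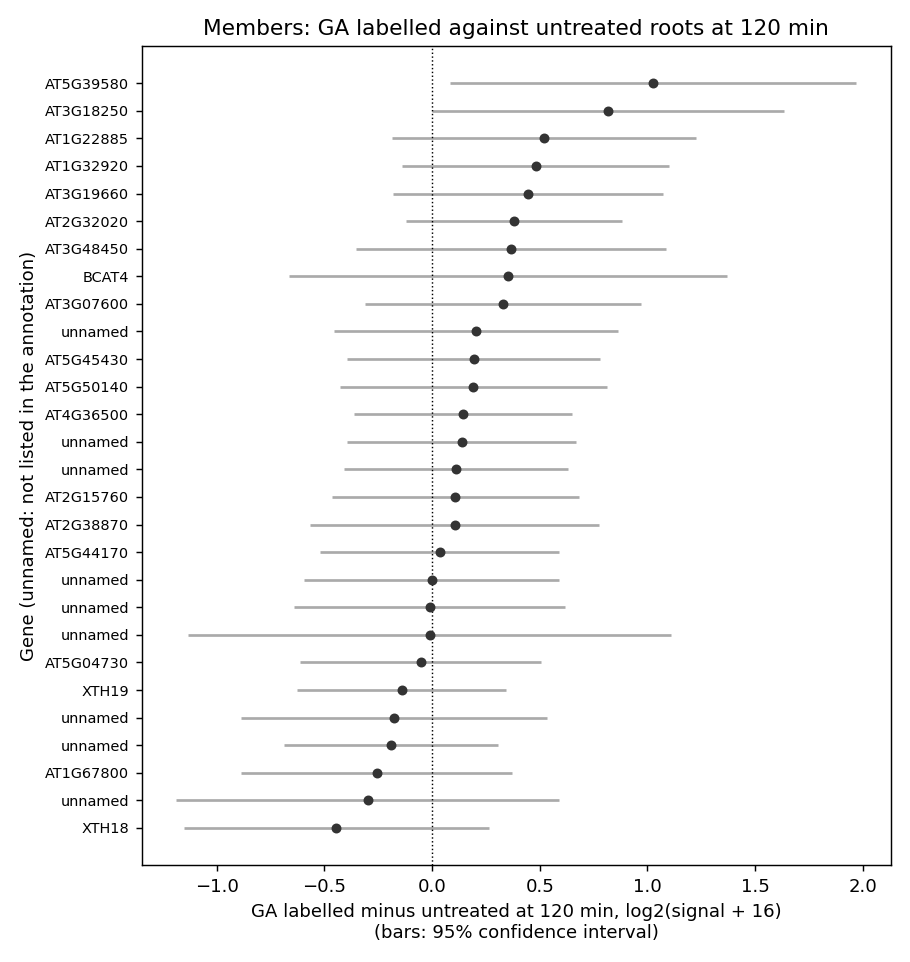
Difference between GA-labelled and untreated roots at 120 min in log2(signal + 16) for each of the 28 members, with the 95% confidence interval of the limma fit. The points run from -0.45 for XTH18 to 1.03 for AT5G39580, and in this fit, which has no block for the replicate number, the interval of AT5G39580 alone does not reach 0, before any adjustment.

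Pathway lists, drawn up with earlier results of these data known, gave few further cases. The 20 lists held 685 genes, of which 102 had a named probe set and 56 a mean of 50 or more. Of these 56, 3 met the rule, BCAT4, XTH18 and XTH19, where the background was 0.274% of all probe sets with such a mean. With them, 9 had all 4 arrays at 120 min above both at 0 min, where the background was 4.68% of all probe sets with such a mean. Since the rule used the same signals and the lists were not chosen apart from them, nothing is read from either count. Of the 11 expansin and XTH genes with a mean of 50 or more, wall-loosening proteins and xyloglucan enzymes, 3 lay above and 0 below. Their median margin was 0.774, against 0.711 for all probe sets with such a mean. Genes outside the 28 are named here because they make up such small counts, which was decided after their values were seen. The third wall gene was EXPA15, with 73.9 and 97.7 at 0 min, 126 and 330.2 in the untreated and 190.1 and 123 in the GA-labelled roots at 120 min, which gave a margin of 1.26.

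Heat shock proteins and chaperones had 2 of 6 measured genes above and 0 below, and none met the rule. Over all probe sets with a mean of 50 or more, 4.68% lay above and 6.56% below. The median margin of this list was 0.749, against 0.711 for all such probe sets. Hop3, which passes clients between the Hsp70 and Hsp90 chaperones, had signals of 53.3 and 32.7 at 0 min, 97.3 and 102 in the untreated and 105 and 67.2 in the GA-labelled roots at 120 min, a margin of 1.26. Hsp70-2, itself a chaperone, had 147 and 161 at 0 min, 194 and 261 in the untreated and 252 and 209 in the GA-labelled roots at 120 min, a margin of 1.204. The rest of this list, Hop1, Hop2, Fes1A and AT5G48570, lay neither above nor below, with margins from 0.681 to 0.75. In the indole glucosinolate list the single measured gene, UGT74B1, a glucosyltransferase of glucosinolate synthesis, read 78.4 and 135 at 0 min, 143 and 203 in the untreated and 193 and 197 in the GA-labelled roots at 120 min, a margin of 1.06. The methionine-derived list held BCAT4 as its single gene with a mean of 50 or more.

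The defence list and the list of other wall genes each had 1 gene above, of 2 and of 6 with a mean of 50 or more. In the defence list it was CHI, with a margin of 1.22. In the other it was CSLC04, of a family that makes glucan backbones. The margin of CSLC04 was only 1.001, with 179.8 on untreated replicate 1 at 120 min against 179.6 on replicate 1 at 0 min. In 12 lists no gene with a mean of 50 or more had all 4 arrays at 120 min above both at 0 min. Genes under this floor were not counted, though some of them had all 4 arrays above. The lists, each with its number of genes over the floor, were touch and wound response (3), peroxidases and redox (6, a list that does not hold the member AT5G39580), the clock (1), auxin (4), ethylene and cytokinin (1), abscisic acid (2), GA (3), root hairs (3), cell cycle (4), meristem and root cap (2), photosynthesis (2) and sugar status (1). The jasmonate and nutrient lists had no gene with a mean of 50 or more. In the GA list XERICO, a RING-type zinc finger gene, went the opposite way, with 246 and 242 at 0 min, 219 and 130.2 in the untreated and 134 and 197 in the GA-labelled roots at 120 min, and all 4 arrays at 120 min lay below both at 0 min.

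The members formed the upper end of a continuous range of margins. Of the 10232 probe sets, 479 (4.68%) had all 4 arrays at 120 min above both at 0 min by any amount, and 671 (6.56%) had all 4 below. At a distance of 1.3-fold the order was the other one, with 28 above and 9 below. Among probe sets matched to 1 gene, AT2G32020 (margin 1.32), XTH18 (1.33) and AT2G15760 (1.33) lay just inside the threshold. An unnamed member lay nearer to it, at 1.316. Just outside, again among probe sets matched to 1 gene, were AT3G14920 (1.29), SDH1-2, a subunit of succinate dehydrogenase (1.28), and AT5G42860 (1.27). SDH1-2 read 33.8 and 42.3 at 0 min, 75.5 and 53.9 in the untreated and 67.7 and 75.6 in the GA-labelled roots at 120 min, so that its margin was set by untreated replicate 2 at 120 min and replicate 2 at 0 min. Taken alone, untreated roots at 120 min met the 1.3-fold distance for 72 probe sets and GA-labelled roots for 178, so the 28 were 38.9% of the first count and 15.7% of the second; both counts use the same 0 min arrays.

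**Figure D4:**
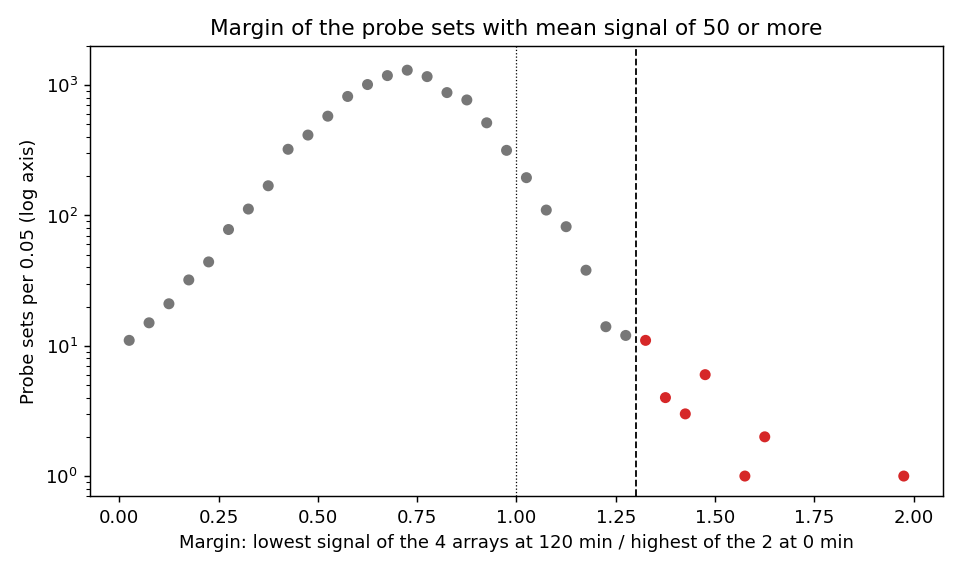
Number of probe sets (log axis) in each interval of 0.05 in margin, for the 10232 probe sets with a mean signal of 50 or more; the dotted line marks a margin of 1 and the dashed line the threshold of 1.3, and red points are members. Counts fall past 1, with 12 probe sets between 1.25 and 1.3 and 11 between 1.3 and 1.35, and 1 member, AT5G50140, stands at 1.98.

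The same count was made with another 2 of the 6 arrays in place of the 0 min pair, as a description with no test. The 14 other choices gave 4 to 130 probe sets with a median of 22.5; 6 of them gave more than 28 and 8 gave fewer. Taking the other groups as the low pair gave 11 probe sets for untreated roots at 120 min and 9 for GA-labelled roots. Pairs of arrays with the same replicate number gave 21 to 130, and 5 of those 6 choices exceeded 28. Of the 8 choices that mixed replicate numbers, 7 gave 4 to 24 and 1 exceeded 28, with 80: untreated replicate 2 at 120 min with GA-labelled replicate 1. The count of 28 lay within the range that other pairs of arrays gave, and the 2 largest counts, 130 and 106, belonged to pairs that shared replicate number 1.

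**Figure D5:**
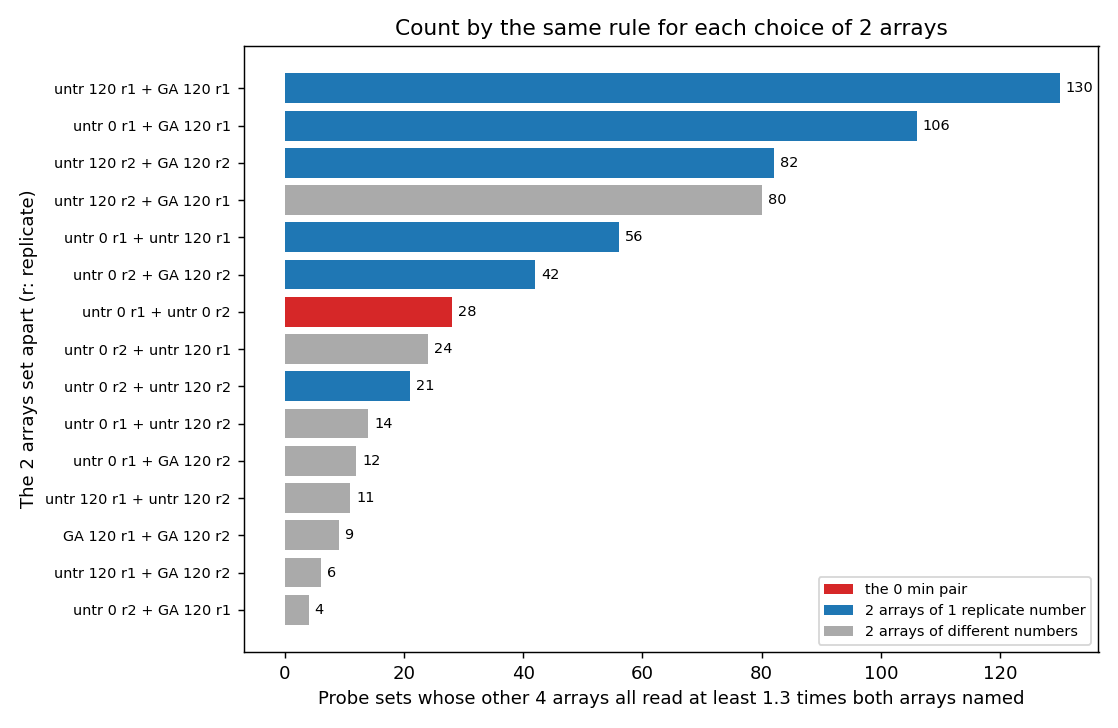
Number of probe sets whose other 4 arrays all read at least 1.3 times the 2 arrays named on the left, for each of the 15 choices of 2 arrays; bars start at 0, and red marks the 0 min pair, blue a pair with the same replicate number and grey the other pairs. The 0 min pair stands at 28, between 4 and 130.

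Leaving out GA-labelled replicate 1, whose control ratios stood apart, gave 38 members, which held 27 of the 28; the other one, AT3G48450, lost its place through the floor on the mean. Leaving out any array leaves fewer arrays to satisfy. The count moved more without each of the other arrays. It was 137 without replicate 1 and 326 without replicate 2 at 0 min. It was 125 and 45 without untreated replicates 1 and 2 at 120 min, and 56 without GA-labelled replicate 2.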

How the data were processed

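RNA from 6 root tip samples was hybridised to ATH1 arrays, which carry 22810 probe sets. The deposited values are MAS5 signals, a linear intensity, made by the authors with GCOS per the submitters' processing notes; the 2% trimmed mean was 100.0 on every array. Arrays give no read depth, so their number limits the precision. Names came from the platform annotation of the probe sets, which gave 1 gene for 13513 probe sets, several for 503 and none for 8730, updated through RefSeq (TAIR10.1), where 17 of the 19 member loci matched. Roles are general knowledge.

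The 64 control probe sets were left out. The members and lists were chosen with earlier results of these data known. Treated and untreated roots at 120 min were compared by two-sided tests in limma 3.58.1 (R 4.3.3) on log2(signal + 16), fitted to all 6 arrays with a trended eBayes and Benjamini-Hochberg adjustment, over the 13647 probe sets above the 40th percentile of mean log2 signal (signal 24.4), which included all 28 members. Genes were named by margin (the 16 largest, and the 3 on either side of the threshold) and by signal, spread and list, which took in all 19 members with 1 gene. Rules, margins and counts were computed in Python 3.11.15 with pandas 2.3.3. The fit was run on simulated data with independent noise on each array, where the check was on the median error of its estimates. Differences shared by arrays of the same replicate number were not simulated. Alternatives were other thresholds, floors, pseudocounts, filters and scalings, each array left out, and a replicate block. Promoter motifs and sequences were not analysed here.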

Additional observations from a re-analysis of the deposited data

How the results depend on the processing

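The count of 28 members moved with its thresholds: 54 at 1.2-fold, 4 at 1.5-fold and 0 at 2-fold, and 61 with a floor of 25 and 10 with a floor of 100 on the mean signal. Quantile normalization gave 30 members and median centring 35, which held 27 and all 28 of the members. Leaving out each array in turn gave 38 to 326. With 1 array per group the count was 761 for replicate 1 and 587 for replicate 2, which held 26 and 27 of the 28; these 2 settings were chosen after seeing the data. The margins of the 19 named members stayed at 1.3 or more under both scalings. Between treated and untreated roots at 120 min, limma called 0 probe sets in every setting run; with a replicate block it called 0 probe sets and 0 members, with 446 probe sets and 2 members at an unadjusted p under 0.05, AT5G39580 (95% confidence interval 0.16 to 1.89 in log2) and AT3G18250 (0.16 to 1.47); without treated replicate 2 the lowest adjusted p was 0.106. The replicate numbers were not treated as pairing the samples, since only 2 numbers exist and no label says what they share; whether they mark a shared batch was not tested. Differences between replicates 2 and 1 correlated across probe sets at 0.385 to 0.438 between groups.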
